A study of Mus musculus with 12 samples.

Results

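The 10 genes described here belong to the hepcidin axis of mouse liver and are the BMP ligand Bmp6, the 2 hepcidin genes Hamp and Hamp2, and the BMP-SMAD target genes Smad6, Smad7, Smad9, Id1, Id2, Id3 and Atoh8. They were chosen by name, and each matched 1 Ensembl identifier among the 27022 genes of the count table, so that all 10 could be found. Liver RNA came from 6 female SJL/J mice that were 11 weeks old, an inbred strain for which no engineered allele is given. The 3 control mice ate the AIN-93G control diet with 50 ppm iron throughout, and the 3 iron-loaded mice ate the same type of diet with 2% carbonyl iron from 6 weeks of age. All mice were fasted from the morning, the livers were perfused to flush out blood, and a piece of the large lobe was used. Each RNA was made into 1 Trad-KAPA library, in which fragments of whole transcripts are sequenced, and 1 3’-LEXO library, in which reads come from near the 3′ end of each transcript, so that there were 12 libraries. The mice were housed 4 per cage with 1 cage for each diet, so diet and cage cannot be told apart. Since both kits used the same RNA, they are repeated measurements of the same mice and not further mice.

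Hepcidin, the product of Hamp, is a peptide hormone that hepatocytes secrete and that lowers iron entry into plasma by removing the iron exporter ferroportin from cell surfaces. Iron raises Bmp6 in the sinusoidal endothelial cells of the liver, BMP6 binds receptors on hepatocytes, and the receptor-activated SMAD proteins then drive Hamp together with a set of shared target genes. That set includes the inhibitory SMADs, which feed back on the pathway, and the ID proteins, which block basic helix-loop-helix transcription factors. A Trad-KAPA library held between 13834682 and 16553616 counts and a 3’-LEXO library between 10724672 and 14104236. A level in CPM states how many of every 1000000 counts in a library fell on the gene. In bulk liver, fewer cells of a type and less RNA per cell cannot be told apart.

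Most of these genes differed between the diets, and all but Hamp2 had a higher mean level on the iron-loaded diet. In Trad-KAPA, 8 of the 10 passed an edgeR adjusted p of 0.05, as did 17.1% of all genes tested, and 7 of the 10 passed it as higher, as did 8.77% of all genes. In 3’-LEXO, 5 of the 9 genes that could be tested passed, against 6.1% of all genes, and 4 of the 9 passed as higher, against 3.17%. Hamp2, Smad7, Smad9 and Atoh8 passed in both kits, which makes 4 of 9 against 5.23% of the genes tested in both. The libraries of the 2 diets did not overlap for 10 of 10 genes in Trad-KAPA, where 41.2% of all genes had separate diets, and for 8 of 9 in 3’-LEXO, against 31.3%. All 9 genes tested in both kits had a log2 fold change of the same sign in both. The share of all genes with the same sign was not counted, and both kits used the same RNA. The median log2 fold change was 1.73 over the 10 genes in Trad-KAPA, against 0.02 over all genes tested. Over the 9 genes of 3’-LEXO it was 1.58, against 0.01.

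**Figure D1:**
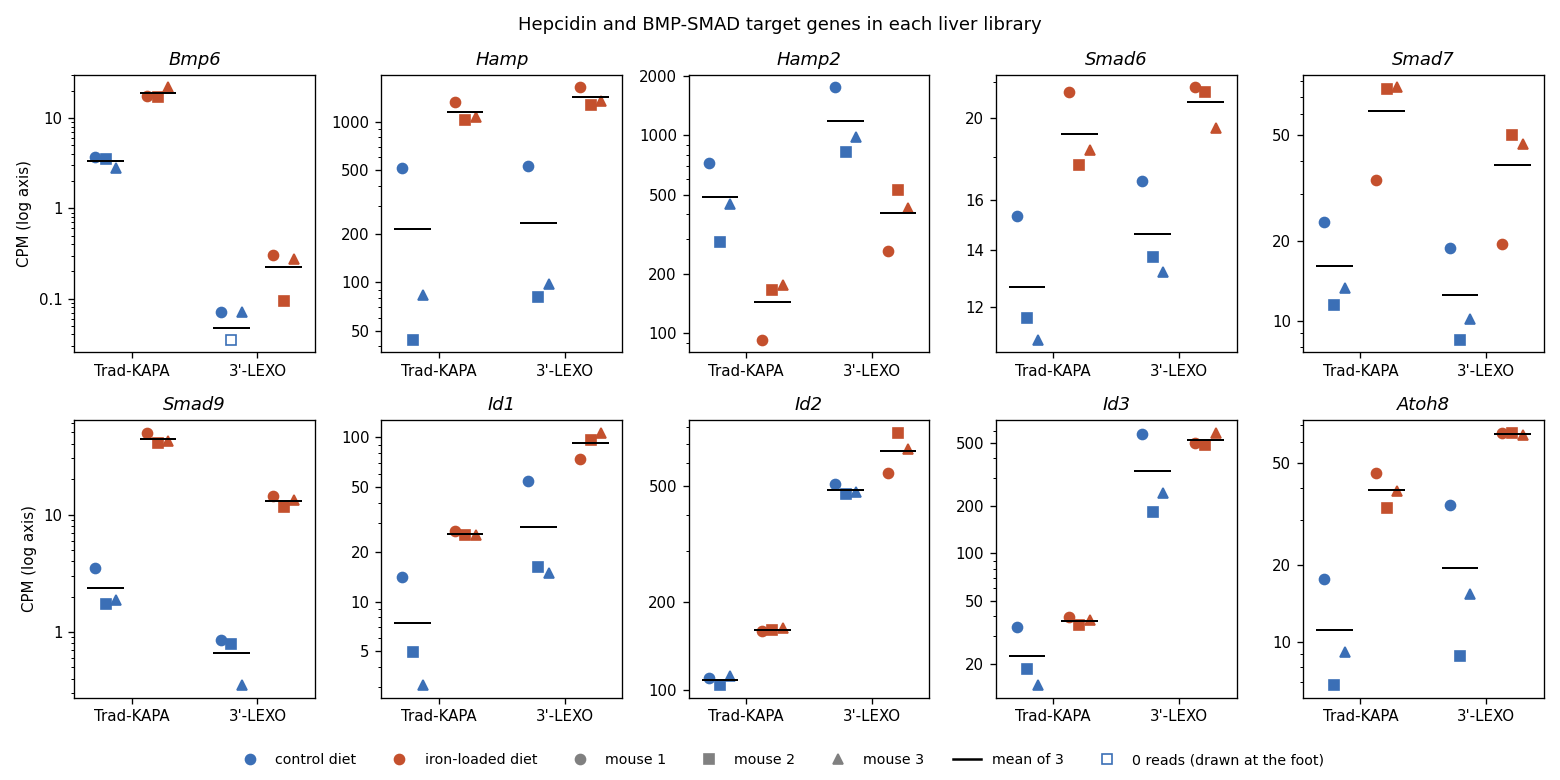
CPM of each gene (log axes, which differ between panels) in the 12 liver libraries, with control mice in blue, iron-loaded mice in red, the shape of a point giving the mouse and the bar the mean of 3. In Trad-KAPA the diets are separate for all 10 genes, and control mouse 1 is the highest control for 9 of them.

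Bmp6, the ligand at the head of the pathway, rose on the iron-loaded diet. In Trad-KAPA it was at 3.75, 3.55 and 2.82 CPM in control mice 1, 2 and 3 and at 17.9, 17.2 and 22.1 CPM in iron-loaded mice 1, 2 and 3. The groups were far apart and the mice of each diet close together, at 3.37 ± 0.488 CPM on the control diet and 19.0 ± 2.64 CPM on the iron-loaded diet (SD, n = 3 each). On the log2 scale the fold change was 2.42 ± 0.17 (SE), with an edgeR adjusted p of 0.000505, and it stayed past the threshold in all 12 alternative fits. Of 12 marker genes of sinusoidal endothelial cells, the main source of Bmp6 in liver, Stab1, Lyve1, F8 and Cdh5 rose in the same Trad-KAPA fit. Over all genes tested there, 8.77% passed as higher. The summed level of the list ran from 506 to 678 CPM in the control mice and from 627 to 748 CPM in the iron-loaded mice. In 3’-LEXO, Lyve1 rose and Stab2 and Fcgr2b fell, while 3.17% of all genes passed as higher and 2.92% as lower. The sum there ran from 529.98 to 644 CPM and from 469.9 to 509 CPM. The part of these cells in the rise of Bmp6 was not tested.

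Bmp6 was the one gene of the 10 that 3’-LEXO could not test. It had 1, 0 and 1 reads in the control mice and 4, 1 and 3 in the iron-loaded mice, 10 reads in all, where Trad-KAPA had 963. Pooled over the 6 libraries its 3’-LEXO level was 0.130 CPM, with an exact 95% interval from 0.0624 to 0.239 that covers counting error only, and its Trad-KAPA level was 11.0 CPM, 84.2-fold higher. Of the 7558 genes with at least as many Trad-KAPA reads as Bmp6, 19 had a ratio of 3’-LEXO to Trad-KAPA this low or lower (0.251%). Bmp6 spans chr13:38345107-38500302 on the plus strand of GRCm38 (GENCODE M21), and the last 224 exon bases at its 3′ end lie opposite an exon of Txndc5, which runs on the minus strand. This end of a transcript is the one from which 3’-LEXO draws its reads. Whether the counting used the strand is not given in the sources used here, and the part of this overlap in the low 3’-LEXO count was not tested.

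The 2 hepcidin genes differed between the diets in opposite directions. Hamp, which encodes the iron hormone, was at 515, 44.0 and 83.2 CPM in control mice 1, 2 and 3 and at 1326, 1026 and 1070.5 CPM in iron-loaded mice 1, 2 and 3 by Trad-KAPA. By 3’-LEXO the same mice had 528, 81.0 and 98.3 CPM, and 1633, 1272 and 1350 CPM. Every iron-loaded mouse was above every control mouse in both kits, but control mouse 1 stood far above the other controls. The log2 fold change of Hamp was 2.36 ± 0.77 (SE) in Trad-KAPA, with an edgeR adjusted p of 0.0667 that misses the threshold. It was 2.53 ± 0.62 in 3’-LEXO, with an edgeR adjusted p of 0.0425. Without control mouse 1 it was 4.06 in Trad-KAPA (edgeR adjusted p = 0.00381) and 3.90 in 3’-LEXO (edgeR adjusted p = 0.000708). In 3’-LEXO the call on Hamp was lost without control mouse 2 (edgeR adjusted p = 0.107), control mouse 3 (0.133), iron-loaded mouse 2 (0.0520) or iron-loaded mouse 3 (0.0806), with log2 fold changes between 2.12 and 2.57.

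Hamp2, the neighbouring paralog for which no role in iron balance is established, fell. It was at 725, 290.4 and 451 CPM in control mice 1, 2 and 3 and at 93.1, 166 and 176 CPM in the iron-loaded mice in Trad-KAPA. The 3’-LEXO values were 1749, 824 and 985 CPM on the control diet and 262, 533 and 430 CPM on the iron-loaded diet. Control mouse 1 was again the highest control, and iron-loaded mouse 1, which had the highest Hamp, had the lowest Hamp2 in both kits. The log2 fold change of Hamp2 was −1.81 ± 0.36 (SE) in Trad-KAPA (edgeR adjusted p = 0.0148) and −1.59 ± 0.34 in 3’-LEXO (edgeR adjusted p = 0.0268). Without control mouse 1 it was −1.44 in Trad-KAPA (edgeR adjusted p = 0.0446), and −1.22 in 3’-LEXO, where the call was lost (edgeR adjusted p = 0.0847). The call was also lost in 3’-LEXO without control mouse 3 (0.0743) or iron-loaded mouse 3 (0.0716), and in Trad-KAPA without control mouse 3 (0.0505).

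As a ratio within a library, the share of Hamp in the reads of both hepcidin genes needs no scaling to library size. In Trad-KAPA, Hamp made up 41.5%, 13.2% and 15.6% of these reads in control mice 1, 2 and 3 and 93.4%, 86.1% and 85.9% in iron-loaded mice 1, 2 and 3. By 3’-LEXO it made up 23.2%, 8.95% and 9.07%, and 86.2%, 70.5% and 75.9%. Hamp2 thus had the larger number of reads in every control library and Hamp in every iron-loaded library. Per kilobase of merged exons, however, control mouse 1 had 1256 CPM of Hamp and 1243 CPM of Hamp2 in Trad-KAPA, whereas Hamp2 led in control mice 2 and 3. Each share rests on 4992 to 31856 reads, and the widest Wilson 95% interval, that of control mouse 2 in Trad-KAPA, ran from 12.3% to 14.1%. The mean share was 23.4% ± 15.7 on the control diet and 88.5% ± 4.31 on the iron-loaded diet in Trad-KAPA (SD, n = 3 each). For 3’-LEXO the means were 13.7% ± 8.18 and 77.5% ± 7.99. The two-sided exact permutation p was 0.1 in each kit, which is the smallest that 3 against 3 can give. The sum of both genes overlapped between the diets. It was 703 ± 475 CPM on the control diet and 1286 ± 119 CPM on the iron-loaded diet in Trad-KAPA (two-sided exact permutation p = 0.2, n = 3 each). In 3’-LEXO it was 1422 ± 745 CPM and 1827 ± 60.3 CPM (two-sided exact permutation p = 0.4, n = 3 each).

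**Figure D2:**
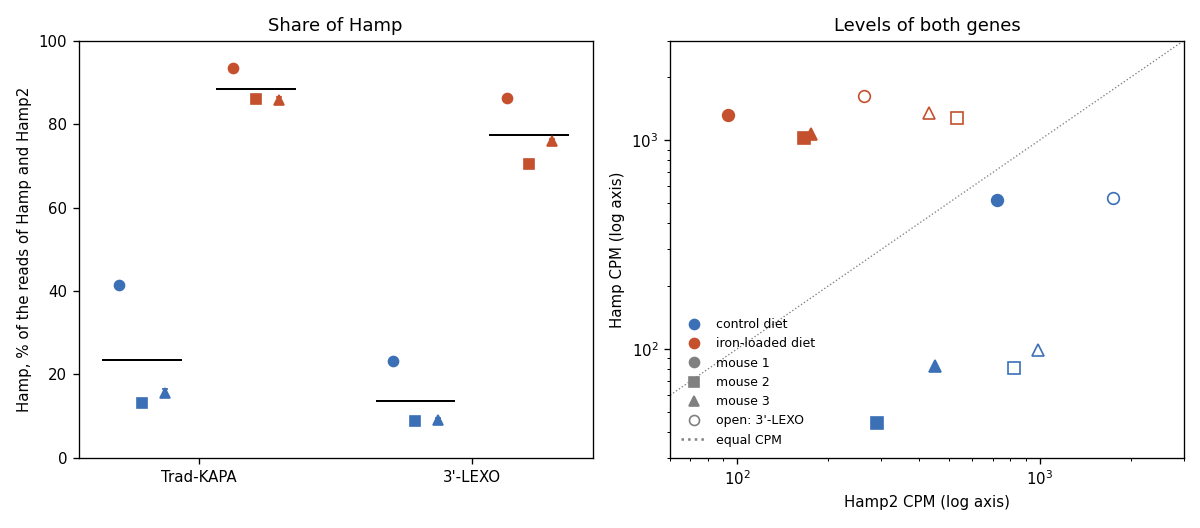
Left, Hamp as a percentage of the reads of Hamp and Hamp2 in each library with its Wilson 95% interval (mostly smaller than the point) and the mean of 3 as a bar. Right, Hamp against Hamp2 in CPM on log axes, where all iron-loaded libraries lie above the line of equal CPM and all control libraries below it.

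Both hepcidin genes lie on the minus strand of chromosome 7, Hamp at chr7:30942368-30944032 and Hamp2 at chr7:30922372-30924681 (GRCm38, GENCODE M21). Of the 361 distinct 50-base words in the exons of Hamp, 16.6% also occur in Hamp2, and of the 534 of Hamp2, 19.5% also occur in Hamp or in the overlapping long noncoding RNA Gm44662, which shares 89 exon bases with Hamp2 on the opposite strand. Reads from words that both hepcidin genes hold could not map uniquely, and reads in the overlap with Gm44662 could be given to either gene unless strand was used, so the split between Hamp and Hamp2 is uncertain to that extent. The 250 bases upstream of the RefSeq start of each gene (GRCm38.p6, minus strand, shown 5′ to 3′) are given because the 2 genes went in opposite directions although these windows are nearly alike. That of Hamp is at chr7:30944030-30944279, of which the 3 bases nearest the start lie in the first GENCODE exon, and that of Hamp2 at chr7:30924182-30924431, between 2 GENCODE exons of the gene. Capitals mark the hexamer GGCGCC, a core that SMAD1 and SMAD5 bind, and TTCNNNGAA, the core bound by STAT proteins; in Hamp2 they mark the 6 bases that align with the hexamer of Hamp, and the STAT core.
Hamp: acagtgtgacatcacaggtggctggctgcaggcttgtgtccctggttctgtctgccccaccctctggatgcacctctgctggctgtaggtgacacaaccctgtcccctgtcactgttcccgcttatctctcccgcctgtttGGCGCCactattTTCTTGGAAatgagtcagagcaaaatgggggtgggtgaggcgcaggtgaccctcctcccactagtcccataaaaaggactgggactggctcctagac
Hamp2: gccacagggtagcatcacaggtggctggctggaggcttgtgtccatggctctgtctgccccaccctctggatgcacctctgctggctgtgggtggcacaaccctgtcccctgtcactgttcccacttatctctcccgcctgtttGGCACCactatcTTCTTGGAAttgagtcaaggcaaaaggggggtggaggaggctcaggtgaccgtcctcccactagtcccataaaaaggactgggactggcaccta
The windows were identical at 227 of 247 aligned bases (91.9%). The STAT core was the same in both and began 97 bases before the start of Hamp and 94 bases before that of Hamp2. The hexamer began 109 bases before the start of Hamp, and its counterpart in Hamp2, 106 bases before the start, differed by G4A, counted from 1 at the 5′ end of the hexamer with the base of Hamp first.

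Among the 8 genes whose upstream window was at hand, GGCGCC was found in Hamp, Id2 and Smad9, 3 of 8, while 9.59% of 32851 mouse promoters held it in the same 250 bases. TTCNNNGAA was found in Hamp and Hamp2, 2 of 8 against 7.02%, and CACGTG, the E-box bound by basic helix-loop-helix proteins, in Bmp6 and Atoh8, 2 of 8 against 6.02%. All 3 motifs read the same on both strands and none of them overlapped another in the windows shown. A match describes letters only, and the data hold no measure of binding. The shares over all promoters were not matched for base composition, so they are not matched shares for these genes. Smad9 is shown as the gene with the largest rise, from chr3:54755332-54755581 on the plus strand (RefSeq, GRCm38.p6), with its GGCGCC in capitals, 51 bases before the start.
Smad9: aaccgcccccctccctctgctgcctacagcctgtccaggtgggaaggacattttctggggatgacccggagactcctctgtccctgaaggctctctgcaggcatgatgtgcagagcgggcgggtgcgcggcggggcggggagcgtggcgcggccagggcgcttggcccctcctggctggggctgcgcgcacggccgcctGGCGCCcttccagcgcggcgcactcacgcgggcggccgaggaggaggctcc

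The 3 SMAD genes all rose in Trad-KAPA, by very different amounts. Smad9, which encodes a receptor-activated SMAD that is itself a target of BMP signalling, had the largest log2 fold change of the 10 genes in both kits. In Trad-KAPA it was at 3.50, 1.74 and 1.88 CPM in control mice 1, 2 and 3 and at 49.7, 41.0 and 42.3 CPM in iron-loaded mice 1, 2 and 3. In 3’-LEXO it was at 0.857, 0.787 and 0.354 CPM, which are 12, 11 and 5 reads, and at 14.5, 11.7 and 13.3 CPM. Its log2 fold change was 4.13 ± 0.22 (SE, edgeR adjusted p = 0.000260) in Trad-KAPA and 4.23 ± 0.28 (edgeR adjusted p = 0.000179) in 3’-LEXO. With 12 alternative fits in each kit, its log2 fold change stayed between 3.94 and 4.52 and its call held in all of them.

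Smad7, an inhibitory SMAD that blocks the receptors, was at 23.6, 11.5 and 13.3 CPM in control mice 1, 2 and 3 and at 34.1, 74.7 and 75.8 CPM in iron-loaded mice 1, 2 and 3 by Trad-KAPA. The 3’-LEXO values were 18.8, 8.52 and 10.2 CPM, and 19.6, 50.2 and 46.4 CPM. Iron-loaded mouse 1 was well below the other 2 iron-loaded mice in both kits, at 0.452 and 0.405 of their mean level, and in 3’-LEXO it was close to control mouse 1. No other gene of the 9 had iron-loaded mouse 1 at least 2-fold below both others in both kits, a pattern seen in 1.45% of all genes. The log2 fold change was 1.88 ± 0.36 (SE, edgeR adjusted p = 0.0139) in Trad-KAPA and 1.58 ± 0.39 (edgeR adjusted p = 0.0428) in 3’-LEXO. In Trad-KAPA the call was lost without control mouse 2 (edgeR adjusted p = 0.0580) or control mouse 3 (0.0624). In 3’-LEXO it was lost when any single mouse other than iron-loaded mouse 1 was left out, with edgeR adjusted p from 0.0503 to 0.144. Smad6, the other inhibitory SMAD, rose less. It was at 15.3, 11.7 and 11.0 CPM on the control diet and at 21.4, 17.6 and 18.3 CPM on the iron-loaded diet in Trad-KAPA, with a log2 fold change of 0.52 ± 0.14 (SE, edgeR adjusted p = 0.0393). The 3’-LEXO libraries of the same mice gave 16.9, 13.7 and 13.2 CPM and 21.7, 21.4 and 19.5 CPM. The diets were separate there too, but the log2 fold change of 0.46 ± 0.15 did not pass (edgeR adjusted p = 0.1002). The Trad-KAPA call on Smad6 was lost without control mouse 2 (edgeR adjusted p = 0.128), control mouse 3 (0.120), iron-loaded mouse 2 (0.0771) or iron-loaded mouse 3 (0.0846).

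Of the 3 ID genes, Id1 had the largest change. It was at 14.2, 4.96 and 3.11 CPM in control mice 1, 2 and 3 and at 26.8, 25.5 and 25.4 CPM in iron-loaded mice 1, 2 and 3 by Trad-KAPA. The 3’-LEXO levels were 54.1, 16.2 and 14.8 CPM, and 74.2, 96.5 and 106 CPM. As for Hamp, control mouse 1 lay between the other controls and the iron-loaded mice. Id1 had a log2 fold change of 1.73 ± 0.43 (SE, edgeR adjusted p = 0.0295) in Trad-KAPA and 1.65 ± 0.43 in 3’-LEXO, where it just missed the threshold (edgeR adjusted p = 0.0531). Without control mouse 1 it was 2.60 (edgeR adjusted p = 0.00310) and 2.51 (edgeR adjusted p = 0.00340), a call in both kits. Without iron-loaded mouse 1 the 3’-LEXO value also passed (1.80, edgeR adjusted p = 0.0316). In Trad-KAPA the call was lost without control mouse 2 (edgeR adjusted p = 0.102), control mouse 3 (0.0721), iron-loaded mouse 2 (0.0609) or iron-loaded mouse 3 (0.0607).

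For Id2 the mice of one diet lay close together in Trad-KAPA, which gave 110.01, 104 and 112 CPM on the control diet and 159, 161 and 164 CPM on the iron-loaded diet. The log2 fold change of 0.50 ± 0.10 (SE) passed (edgeR adjusted p = 0.0166), but not without control mouse 1 (0.0578), control mouse 2 (0.0671), iron-loaded mouse 2 (0.0602) or iron-loaded mouse 3 (0.0603). In 3’-LEXO the values were 511, 471 and 479 CPM, and 556, 765 and 669.7 CPM, and the log2 fold change of 0.39 ± 0.18 did not pass (edgeR adjusted p = 0.203). Id3 did not pass in either kit. It was at 34.3, 18.6 and 14.7 CPM and at 39.5, 35.2 and 37.7 CPM in Trad-KAPA, with a log2 fold change of 0.67 ± 0.25 (edgeR adjusted p = 0.103). The 3’-LEXO levels of Id3 were 567, 183 and 240.1 CPM, and 499, 488 and 581 CPM, so that control mouse 1 lay among the iron-loaded mice, and the log2 fold change was 0.61 ± 0.36 (edgeR adjusted p = 0.320). Without control mouse 1 the log2 fold change of Id3 was 1.09 in Trad-KAPA (edgeR adjusted p = 0.00919) and 1.23 in 3’-LEXO (edgeR adjusted p = 0.0313).

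Atoh8, a basic helix-loop-helix transcription factor that has been linked to hepcidin transcription, rose about as much as Id1. In Trad-KAPA it was at 17.6, 6.83 and 9.18 CPM in control mice 1, 2 and 3 and at 45.6, 33.2 and 38.7 CPM in the iron-loaded mice. By 3’-LEXO it was at 34.2, 8.87 and 15.5 CPM, and at 65.3, 65.0 and 63.9 CPM. The groups did not overlap, and the iron-loaded mice lay close together in 3’-LEXO. Atoh8 had a log2 fold change of 1.73 ± 0.29 (SE, edgeR adjusted p = 0.00948) in Trad-KAPA, where the call held in all 12 alternative fits, and 1.67 ± 0.38 (edgeR adjusted p = 0.0361) in 3’-LEXO. Without control mouse 1 the 3’-LEXO value was 2.33 (edgeR adjusted p = 0.00855). There the call was lost without control mouse 2 (edgeR adjusted p = 0.0636), control mouse 3 (0.134), iron-loaded mouse 2 (0.0518) or iron-loaded mouse 3 (0.0776).

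**Figure D3:**
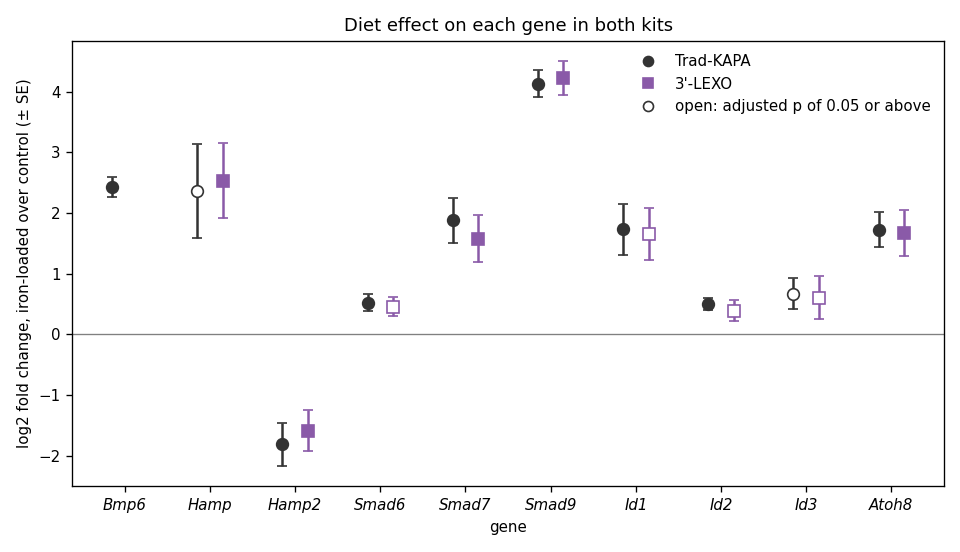
Log2 fold change of each gene, iron-loaded over control, with its SE from edgeR (n = 3 mice per diet), in Trad-KAPA (circles) and 3’-LEXO (squares); open symbols did not reach an adjusted p of 0.05. Hamp2 is the one gene below 0, Smad9 is highest at 4.13 and 4.23, and Bmp6 has no 3’-LEXO value.

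To compare genes with each other, Trad-KAPA CPM was divided by the length of the merged exons in kilobases. On the control diet Hamp2 (838 ± 377 CPM per kilobase) and Hamp (522 ± 637) were the most abundant and their ranges overlapped. Id2 followed at 44.5 ± 1.64 CPM per kilobase, apart from both neighbours. Id3 (12.6 ± 5.81), Id1 (6.397 ± 5.12), Atoh8 (4.47 ± 2.27), Smad6 (3.95 ± 0.732) and Smad7 (3.56 ± 1.44) each overlapped the next in CPM per kilobase. Bmp6 (0.864 ± 0.125) and Smad9 (0.442 ± 0.183) were lowest, and the ranges of these 2 did not overlap. On the iron-loaded diet Hamp led at 2783 ± 395 CPM per kilobase, followed by Hamp2 at 249 ± 77.5 and Id2 at 66.1 ± 1.03, all separate. Id1 (22.3 ± 0.659) and Id3 (20.9 ± 1.19) overlapped, as did Atoh8 (15.6 ± 2.47), Smad7 (13.6 ± 5.27) and Smad9 (8.26 ± 0.873), each with the next in CPM per kilobase. Smad6 (5.97 ± 0.630) and Bmp6 (4.88 ± 0.676) came last and overlapped. Smad9 thus went from the least abundant of the 10 per length on the control diet to above Smad6 and Bmp6 on the iron-loaded diet.

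Control mouse 1 set itself apart from the other control mice in this gene set. It was the highest control for 9 of the 10 genes in Trad-KAPA, the exception being Id2, and for 9 of the 10 in 3’-LEXO, where Bmp6 had 1 read in control mouse 1 and 1 in control mouse 3 and so gave no order. Against the mean of control mice 2 and 3 its Hamp level was 8.10-fold higher in Trad-KAPA and 5.88-fold higher in 3’-LEXO, and its Id1 level 3.52-fold and 3.49-fold higher. Hamp and Id1 were at least 2-fold above both other control mice in both kits, 2 of 9 genes against 0.0818% (10 of 12229) of the genes tested in both. Hamp, Id1, Smad6, Smad7, Smad9 and Atoh8 had control mouse 1 between the other control mice and the mean of the iron-loaded mice in both kits, 6 of 9 against 8.65% of all genes. The 8.65% covers genes with and without separate diets. It was not counted for genes with separate diets alone, so it is not a matched share for these genes. Hamp2 did not share the order of the 6 genes, since control mouse 1 had the highest level of a gene that fell on the iron-loaded diet. Bmp6 in control mouse 1 was 1.18-fold the mean of the other control mice in Trad-KAPA, so that the mouse with high Hamp had no similarly raised Bmp6. The mean Hamp level of the iron-loaded mice was 17.9-fold that of control mice 2 and 3 but 2.22-fold that of control mouse 1 in Trad-KAPA, and 15.8-fold and 2.69-fold in 3’-LEXO. Within the iron-loaded diet Hamp, Smad6, Smad9 and Atoh8 were highest in mouse 1 in both kits, while Hamp2, Id2 and Smad7 were lowest there.

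**Figure D4:**
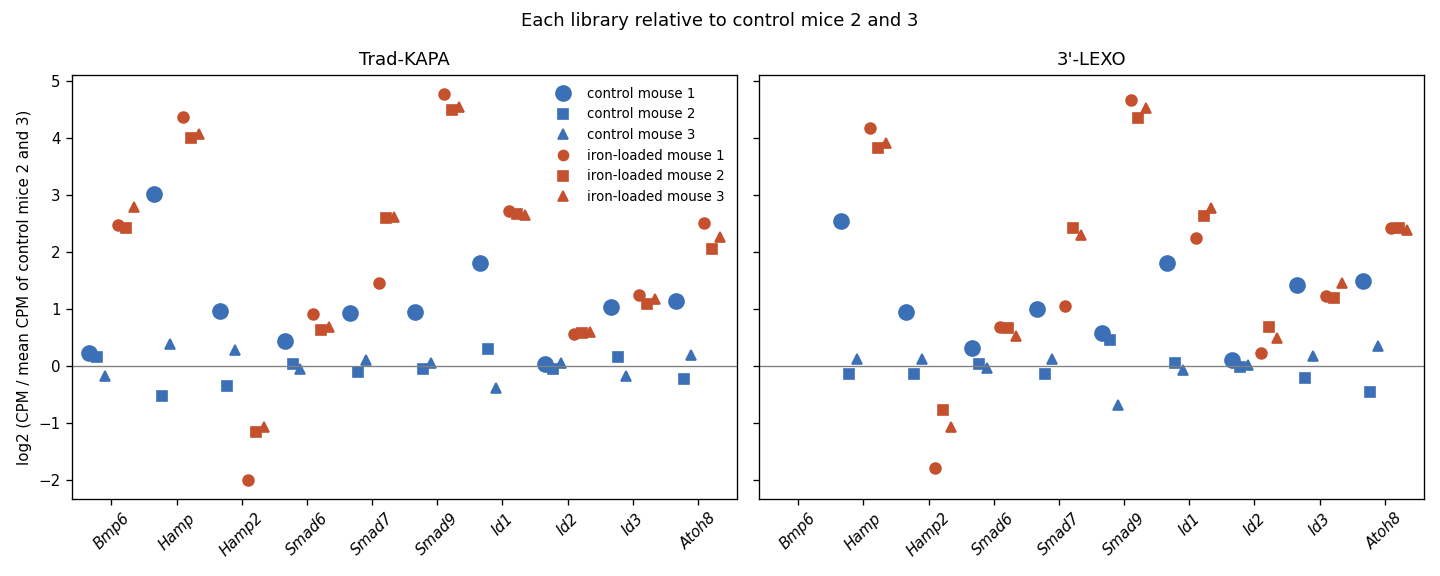
Log2 ratio of each library to the mean CPM of control mice 2 and 3, for each gene in Trad-KAPA (left) and 3’-LEXO (right, without Bmp6). Control mouse 1 (large blue circle) lies above the line for Hamp, Id1 and Atoh8 and near it for Id2, while Hamp2 is above it in control mouse 1 and below it in all iron-loaded mice.

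Other genes moved with control mouse 1 as well. The 10 genes that were at least 2-fold above the other control mice in both kits, listed after their values were seen, were Chac1, Ciart, Cyp2b10, Hamp, Id1, Jdp2, Per1, Rec114, Sds and Sult2a3. Per1 and Ciart are genes of the circadian clock. Per1 was at 53.6, 10.05 and 17.9 CPM in control mice 1, 2 and 3 and at 131, 131 and 124 CPM in the iron-loaded mice in Trad-KAPA. Ciart was at 7.79, 1.61 and 0.651 CPM and at 33.5, 31.7 and 31.6 CPM. A list of 18 clock genes was made after these values were seen and includes Per1 and Ciart, so its counts are a description. In Trad-KAPA 8 of the 18 passed as higher on the iron-loaded diet, against 8.77% of all genes tested, and 2 as lower, against 8.37%. In 3’-LEXO 6 passed as higher, against 3.17% of all genes, and 0 as lower, against 2.92%. Control mouse 1 lay between the other control mice and the iron-loaded mean in both kits for 6 of the 18, against 8.65% of all genes, with or without separate diets. The acute phase genes Saa1 and Saa2 were also highest in control mouse 1, at 1284, 653 and 286 CPM for Saa1 in the control mice in Trad-KAPA, but fell on the iron-loaded diet, to 23.2, 91.0 and 90.1 CPM. The hemoglobin gene Hbb-bs, named after its values were seen and not called in either kit, was lowest in control mouse 1 among the control mice, at 9.73, 31.3 and 78.0 CPM in Trad-KAPA. The part of the clock, of inflammation and of residual blood in the levels of Hamp and Id1 was not tested.

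The fold changes of the 2 kits were then compared in 1 model over all 12 libraries. The edgeR quasi-likelihood test of the difference called 0 of the 10 genes and 0 of 14384 genes in all, with 0 of the 10 and 402 of all genes at an unadjusted p under 0.05, and DESeq2 also called 0 genes, with 390 at an unadjusted p under 0.05. With the mouse as a block, which uses the pairing of both kits by RNA, 0 of the 10 genes and 5 of all genes passed. In that blocked fit the 3’-LEXO minus Trad-KAPA difference in log2 fold change was −0.04 ± 0.15 (SE) for Hamp, 0.20 ± 0.12 for Hamp2 and −0.11 ± 0.18 for Id1. The one gene of the 10 at an unadjusted p under 0.05 in the blocked fit was Smad7, with a difference of −0.31 ± 0.14 (edgeR adjusted p = 0.674). Without the block the 95% interval of the difference for Hamp ran from −1.94 to 2.27, and that for Smad9 from −0.58 to 0.77. For Bmp6 it ran from −3.86 to 3.04, so its 10 reads in 3’-LEXO left the difference unmeasured.

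The levels of these genes depended on the kit, while for their fold changes no difference was called, with the wide intervals given above. The mean log2 ratio of 3’-LEXO to Trad-KAPA CPM over the 6 mice was above 0 for 7 of the 9 genes and below 0 for Smad7 and Smad9, while its median over 12200 genes was −0.01. The 3 ID genes lay highest. Id3 had a log2 ratio of 3.80 ± 0.28 (SD, n = 6 mice), a 13.9-fold higher CPM in 3’-LEXO that put it at the 99.7th percentile of all genes. Id2 was at 2.10 ± 0.16 and Id1 at 1.89 ± 0.27. Hamp2 was at 1.39 ± 0.20, Atoh8 at 0.72 ± 0.23, Hamp at 0.35 ± 0.28 and Smad6 at 0.17 ± 0.11. Smad7 was at −0.54 ± 0.19 and Smad9 at −1.81 ± 0.42, a 3.50-fold higher CPM in Trad-KAPA. All 6 mice had the same sign for each of the 9 genes, which gives a two-sided exact sign-flip permutation p of 0.0313, the smallest that 6 mice allow. How many of all genes had the same sign in all 6 mice was not counted, so this does not set these genes apart. Smad9 (5368 bases of merged exons) and Smad7 (4521) were the longest of the 9. Hamp was the shortest at 410 bases, with a ratio below those of the 3 ID genes, Hamp2 and Atoh8. The part of transcript length in the ratio was not tested. Since the ratio was larger for Hamp2 than for Hamp, the share of Hamp among the reads of both genes was lower in 3’-LEXO than in Trad-KAPA in each of the 6 mice.

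**Figure D5:**
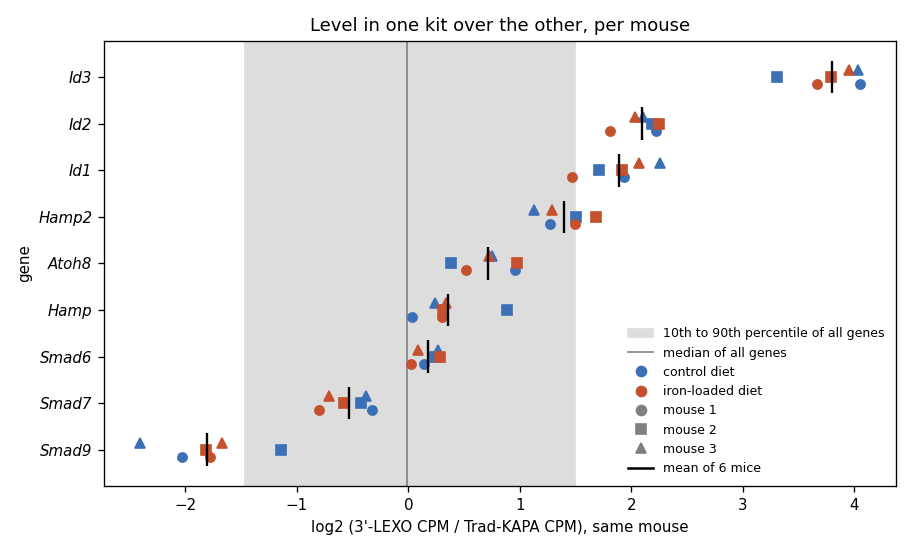
Log2 ratio of 3’-LEXO to Trad-KAPA CPM for each of the 6 mice (points) and their mean (bar), with the 10th to 90th percentile of 12200 genes in grey. Id1, Id2 and Id3 have means above that band and Smad9 a mean below it.

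The genes whose level followed Hamp most closely were ranked by the smaller of the Pearson correlations of log2 (CPM + 1) in both kits, over 6 libraries per kit and 11549 protein-coding genes. These libraries fall into 2 diets, so the values mostly describe the diet difference and the place of control mouse 1. The first 5 were Slc37a4 (0.98), Per1 (0.98), Apoa5 (0.97), Cd300lf (0.97) and Washc2 (0.97). Among the genes of the axis Atoh8 (0.98), Id1 (0.96), Smad6 (0.95) and Id3 (0.92) were most like Hamp by the same measure, and Smad9 (0.89), Smad7 (0.86) and Id2 (0.77) less so. For Hamp2 the first 5 were Gls2 (1.00), Fam53b (0.98), Ddah1 (0.97), Selenoo (0.97) and Mapk15 (0.97). Gls2, a mitochondrial glutaminase, was at 554, 329 and 443 CPM in control mice 1, 2 and 3 and at 167, 225 and 237 CPM in the iron-loaded mice in Trad-KAPA, the same order of mice as Hamp2.

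Other genes of the pathway were also examined. Of 23 ligands, receptors, co-receptors, SMADs and inhibitors, 21 were tested in each kit, with 5 passing in Trad-KAPA (median log2 fold change 0.03) and 1 in 3’-LEXO (median −0.19). Over all genes tested, 17.1% passed in Trad-KAPA and 6.1% in 3’-LEXO. In Trad-KAPA the ligand Bmp2, the receptor Bmpr2 and the receptor-activated Smad1 rose, and the ligands Bmp4 and Bmp7 fell. Bmp2 had 27.2, 24.3 and 22.9 CPM in the control mice and 44.6, 51.4 and 52.2 CPM in the iron-loaded mice, a log2 fold change of 0.93 ± 0.12 (edgeR adjusted p = 0.00374), against 0.29 ± 0.13 in 3’-LEXO (edgeR adjusted p = 0.213). Neo1, a co-receptor of the pathway, fell in 3’-LEXO (log2 fold change −0.61 ± 0.14, edgeR adjusted p = 0.0390) and was at −0.17 ± 0.10 in Trad-KAPA (edgeR adjusted p = 0.248).

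Among 16 other genes that respond to BMP or TGF-beta, 6 of 13 tested passed in Trad-KAPA, 5 of them higher, against 17.1% of all genes. In 3’-LEXO 3 of 14 passed, 2 of them higher, against 6.1% of all genes. Id4, the fourth ID gene, rose in both kits, from 1.45, 1.14 and 1.01 CPM to 4.21, 6.56 and 6.97 CPM in Trad-KAPA, with a log2 fold change of 2.23 ± 0.28 (edgeR adjusted p = 0.00381), and by 1.963 ± 0.27 in 3’-LEXO (edgeR adjusted p = 0.00418). In control mouse 1 it was close to the other control mice in both kits. Skil, a SMAD corepressor gene, rose by 1.34 ± 0.14 (edgeR adjusted p = 0.00167) and 0.88 ± 0.20 (edgeR adjusted p = 0.0349). Hes1, a transcriptional repressor and Notch target, fell in both kits, at −1.26 ± 0.32 in Trad-KAPA (edgeR adjusted p = 0.0327) and −1.28 ± 0.24 in 3’-LEXO (edgeR adjusted p = 0.0176).

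Hamp also responds to STAT3, through which inflammation acts on hepatocytes. Of 16 STAT3 and acute phase genes, 15 were tested and the same 3 passed in both kits. Over all genes tested, 17.1% passed in Trad-KAPA and 6.1% in 3’-LEXO, so in Trad-KAPA the count was near the general share. Saa1 and Saa2, serum amyloid A genes, fell by 3.48 ± 0.65 and 3.59 ± 0.62 on the log2 scale in Trad-KAPA, and Lcn2, which encodes lipocalin 2, rose by 1.58 ± 0.28. In 3’-LEXO, Saa1 fell by 3.07 ± 0.61, Saa2 fell by 3.22 ± 0.58 and Lcn2 rose by 1.24 ± 0.23. Over the 10 hepatocyte markers, the summed Trad-KAPA level was between 161410 and 176440 CPM in the control mice and between 147610 and 179820 CPM in the iron-loaded mice. None of them was at 0, and Fabp1 alone passed, as lower. No hepatocyte marker passed in 3’-LEXO. For this list and those below, 8.77% of all genes tested passed as higher and 8.37% as lower in Trad-KAPA. In 3’-LEXO 3.17% passed as higher and 2.92% as lower. Of 9 Kupffer cell and macrophage markers, Vsig4 and Marco rose in Trad-KAPA and Marco in 3’-LEXO. Marco, a scavenger receptor, went from 9.54, 8.57 and 4.63 CPM to 98.6, 54.2 and 54.2 CPM in Trad-KAPA. Of 8 stellate cell markers Des alone passed in Trad-KAPA, as lower, and 0 passed in 3’-LEXO. Of 10 lymphocyte markers, 7 and 6 were tested and 0 passed in either kit, and of 5 red cell genes 4 were tested in each kit and 0 passed. The median log2 fold change of the red cell genes was nevertheless −1.86 in Trad-KAPA and −1.90 in 3’-LEXO. Without control mouse 1, 4 of them passed in Trad-KAPA and 2 in 3’-LEXO. Over all genes tested in those fits, 1105 of 13424 passed in Trad-KAPA and 326 of 13584 in 3’-LEXO. That mouse was singled out after its values were seen.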

How the data were processed

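Raw counts per gene were deposited, and per the labels and the study's methods the authors aligned 50-base single-end reads to GRCm38 (STAR 2.5.3a) and kept those lying uniquely in exons. The count values are whole numbers, without normalization or removal of duplicates. The counting program, its strand setting and the annotation release are not given in the sources used here. SJL/J reads were mapped to the reference strain. Gene names, exons and lengths came from GENCODE M21, which held 26949 of 27022 identifiers, and promoters from RefSeq.

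Diets were compared within each kit, 3 against 3 mice, by the quasi-likelihood test of edgeR 4.0.16 with TMM scaling, filterByExpr and Benjamini-Hochberg adjustment over all genes tested, with a threshold of 0.05. The SE is the log2 fold change divided by the root of F. The interaction used all 12 libraries. Alternatives were DESeq2 1.42.0, its size factors, no filter, a replicate block, counts thinned to 10000000 reads and leaving out each mouse. Iron-loaded mice 2 and 3 were closer to each other than other pairs (chi-square per degree of freedom 6.64 and 6.61 against 21.6 to 70.2). They differed by more than counting noise, which cannot show whether these libraries come from 2 separate mice. They were kept separate as labelled, and summing them was an alternative chosen after seeing the data. Deviations of the same mouse correlated across kits (r from 0.448 to 0.776 over 10222 genes, one RNA in both kits). The tests were checked on simulated data. The genes and lists were chosen with earlier results of these data known. The rule named all 10 genes, from each other list at most 3 genes called in both kits with the largest mean absolute log2 fold change and the genes behind a count of 5 or fewer, and the 5 protein-coding genes most like Hamp and the 5 most like Hamp2. Hbb-bs, which was not called, and the genes highest in control mouse 1 were named after their values were seen. Motifs were searched in 250 bases, and upstream windows were aligned with Biopython 1.88. Windows of Id1 and Smad7 were not used here. R 4.3.3, Python 3.11.15 and scipy 1.17.1 were used. The Wilson intervals and the exact interval of Bmp6 cover counting error only. Intervals of the difference between the kits are normal approximations from the SE of the edgeR fit. Exact permutation tests were two-sided.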

Additional observations from a re-analysis of the deposited data

Results flagged for a closer look

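Of the 9 genes whose ratio of 3’-LEXO to Trad-KAPA CPM was checked over the 6 mice for a library far from the others, Hamp had one. Control mouse 2 had a log2 ratio of 0.88, against 0.04 to 0.33 in the other mice, and the gap took 0.646 of the whole range which is above Dixon's 95% critical value for 6 samples. The library of this mouse had 657 reads of Hamp in Trad-KAPA, the fewest of the 6. Chance flags about 1 in 20 such sets. Groups of 3 mice were not checked.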

How the results depend on the processing

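All 19 log2 fold changes kept their direction in each of 12 alternatives. The number of these genes called in Trad-KAPA, 8 of 10, ran from 4 to 9 without one mouse, and was 4 without control mouse 2 or 3, 5 without iron-loaded mouse 2 or 3, and 5 with iron-loaded mice 2 and 3 summed. In 3’-LEXO the number, 5 of 9, ran from 1 (without control mouse 3 or iron-loaded mouse 3) to 6 (without iron-loaded mouse 1), was 2 without control mouse 2 or iron-loaded mouse 2, was 2 with iron-loaded mice 2 and 3 summed, and was 3 with the replicate block. The number called in both kits, 4, ran from 1 to 5 without one mouse, was 7 with no expression filter and 2 with iron-loaded mice 2 and 3 summed. Over the other lists 22 genes were called in Trad-KAPA (11 to 26 without one mouse, 13 with mice 2 and 3 summed) and 11 in 3’-LEXO (3 to 12 without one mouse, 6 with mice 2 and 3 summed, 17 by DESeq2, 23 with no expression filter, 5 with the replicate block). Of all genes tested in the main fits, 17.1% passed for Trad-KAPA and 6.1% for 3’-LEXO. Calls over all genes moved as well, from 2255 to between 841 and 2803 without one mouse for Trad-KAPA. For 3’-LEXO they moved from 811 to between 199 and 871. Whether the counts of the lists moved beyond this general change was not tested. Fits without a mouse have fewer samples. Summing iron-loaded mice 2 and 3 took the call from Id1, Id2 and Smad6 in Trad-KAPA. In 3’-LEXO it took the call from Hamp, Smad7 and Atoh8. The rise in the share of Hamp, 65.0 percentage points in Trad-KAPA and 63.8 in 3’-LEXO, ran from 59.9 to 74.1 and from 59.4 to 68.5 without one mouse.

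Same-numbered mice of the 2 diets share only a number (r of their deviations from −0.167 to 0.0992). The diet fit with that replicate block called 1922 genes in Trad-KAPA instead of 2255, and 436 in 3’-LEXO instead of 811; it called Hamp in Trad-KAPA (3.16, edgeR adjusted p = 0.0193) and not Hamp2 (0.0857) or Smad7 (0.120) in 3’-LEXO. With no expression filter all 10 genes passed in Trad-KAPA. In 3’-LEXO 7 passed, Id1 and Id3 being added to the 5 of the main fit. Over all genes 2866 and 2040 passed. By DESeq2 the adjusted p of Hamp was 0.0603 in Trad-KAPA, where 2430 genes passed in all. For 3’-LEXO it was 0.0484, with 1321 genes. Without one mouse, 841 to 2803 genes passed in Trad-KAPA and 199 to 871 in 3’-LEXO. DESeq2 size factors moved the median log2 fold change by under 0.01. In the interaction, 7 genes passed with no expression filter, none of them one of the 10. Counts were low for Bmp6 in 3’-LEXO, with 10 reads in all, and for Smad9 in the control mice there, with 5 to 12 reads.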
